A study of Homo sapiens with 12 samples.

Results

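Expression of the hepatic fibroblast growth factor (FGF) receptor complex and of the bile acid regulators around it was examined in HepG2 and LM3 cells after knockdown of the long noncoding RNA FASRL. The genes followed were KLB, FGFR4, FGF19, FGF21, CYP7A1, NR1H4, NR0B2, NR5A2, ABCB11 and ABCB4, 10 in all. They were chosen on the readout of KLB, whose value after knockdown was far lower in HepG2 and only slightly lower in LM3, together with its receptor partner, its ligands and genes of bile acid control. The KLB values are therefore given as a description and without a test. Of the 10 genes, 6 were among the listed genes: KLB, FGFR4, NR1H4, NR0B2, NR5A2 and ABCB4. FGF19, FGF21, CYP7A1 and ABCB11 were not analysed here.

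RNA-seq covered 12 libraries from HepG2 and LM3, both established human liver cancer lines. Each line was transfected with siRNA to FASRL (siFASRL) or with a control siRNA (siNC), with 3 replicates in each of the 4 groups, and RNA was taken 48 h after transfection. The values are expression levels per gene computed with RSEM, and whether they are FPKM or TPM is not given in the sources used here. Depth is unknown because they are not read counts, so precision rests on the spread of the 3 replicates. The labels do not say whether replicates are separate cultures, so that spread, and the p-values built on it, may be technical. FASRL itself was not analysed here, and the knockdown could not be checked in these libraries. The authors report that they checked the knockdown efficiency in both lines.

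β-Klotho, the product of KLB, is a membrane co-receptor that lets the hormones FGF19 and FGF21 bind FGF receptors, and in hepatocytes its main partner for FGF19 is FGFR4. FGF19 is released by the ileum when bile acids activate the nuclear receptor FXR (NR1H4), and signalling through FGFR4 and β-klotho in the liver represses CYP7A1, the rate-limiting enzyme of bile acid synthesis. Within the liver, FXR also induces SHP (NR0B2), which restrains LRH-1 (NR5A2), an activator of CYP7A1, and it induces the canalicular exporters ABCB11 for bile acids and ABCB4 for phosphatidylcholine.

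KLB (gene ID 152831) lies on chromosome 4 from 39406930 to 39451533 (RefSeq, GRCh38.p14). Its value in HepG2 siNC was 8.47, 8.41 and 7.46, and in HepG2 siFASRL it was 0.78, 0.77 and 0.74. In LM3 siNC it was 0.38, 0.40 and 0.37, and in LM3 siFASRL 0.34, 0.36 and 0.23. The HepG2 control libraries stood far above all the others, and the groups of HepG2 did not overlap. In LM3 the groups were separated by only 0.01, and both lay below the lowest HepG2 siFASRL library. The group means, from high to low, were 8.11 ± 0.567, 0.763 ± 0.0208, 0.383 ± 0.0153 and 0.31 ± 0.07 (SD, n = 3) in HepG2 siNC, HepG2 siFASRL, LM3 siNC and LM3 siFASRL. In HepG2, 9.41% of the siNC mean remained, and in LM3 80.9%. The KLB level in LM3 was thus low under siNC already, 21.2-fold below that of HepG2 siNC. On the log2(value + 1) scale, which shrinks the change of low genes, the HepG2 difference was -2.37. The LM3 effect minus the HepG2 effect was 2.29, and since no LM3 library reached a value of 1 for KLB, this number mostly restates the HepG2 difference.

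**Figure D1:**
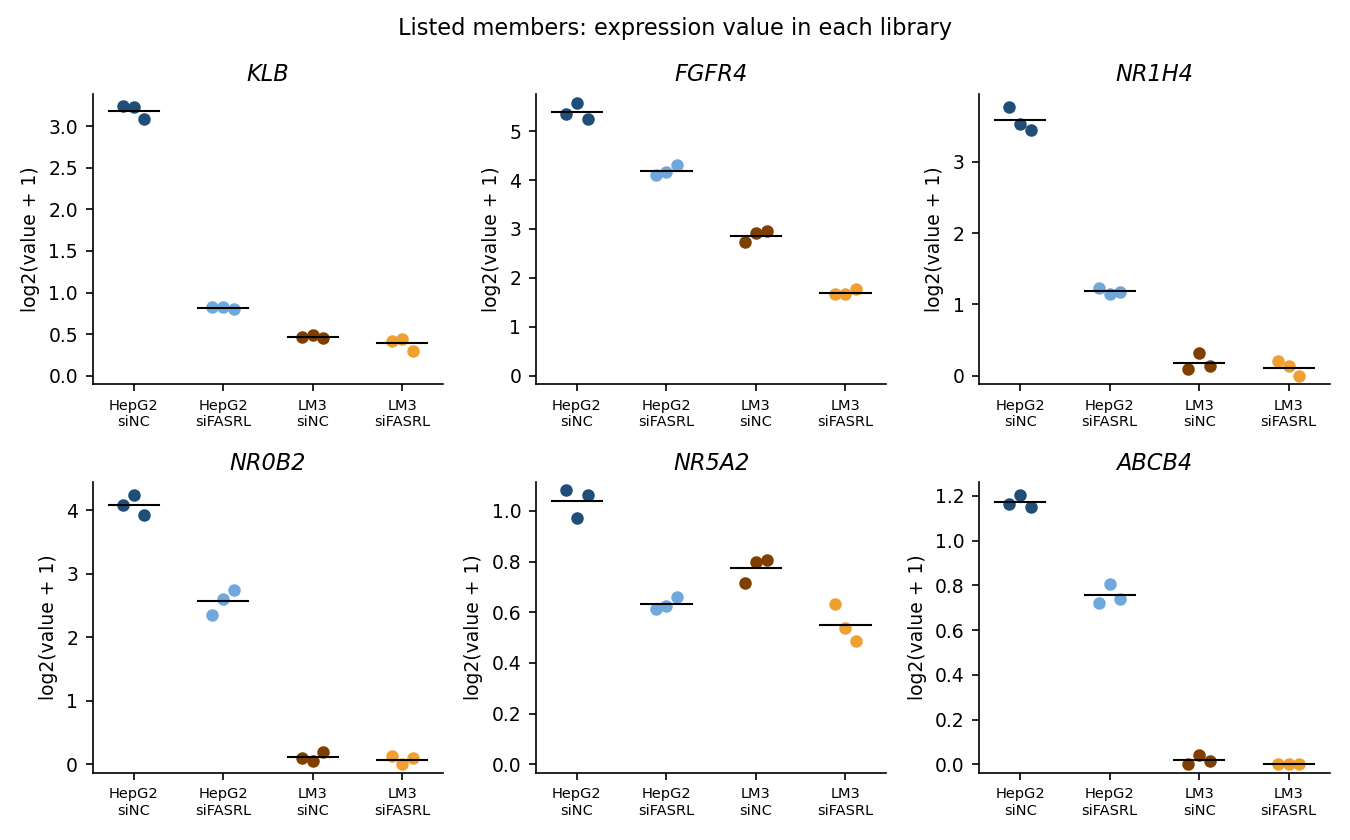
Expression of the 6 listed genes in each library, as log2(value + 1) on a separate scale per gene, for HepG2 siNC, HepG2 siFASRL, LM3 siNC and LM3 siFASRL; points are libraries and bars the mean of 3. The siFASRL points lie below the siNC points in HepG2 for all 6 genes, and in LM3 the clearest separation is that of FGFR4, from 5.62 to 6.78 under siNC to 2.17 to 2.40 under siFASRL. By adjusted p in limma, 44.3% of all tested genes were lower and 44.8% higher in HepG2, so a shift between the groups was common there.

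FGFR4, the receptor tyrosine kinase that pairs with β-klotho (gene ID 2264), lies on chromosome 5 from 177086915 to 177098144. Its value was 40.0, 46.6 and 36.7 in HepG2 siNC and 16.2, 16.9 and 18.7 in HepG2 siFASRL. In LM3 it was 5.62, 6.53 and 6.78 under siNC and 2.18, 2.17 and 2.40 under siFASRL. Every siFASRL library lay below every siNC library of its line, and every LM3 library lay below every HepG2 library. The HepG2 mean fell from 41.1 ± 5.03 to 17.3 ± 1.25 (SD, n = 3), with 42.0% remaining, and the LM3 mean from 6.31 ± 0.61 to 2.25 ± 0.13 (SD, n = 3), with 35.7% remaining. In limma fits over all tested genes the log2 fold change was -1.20 in HepG2 (95% interval -1.40 to -1.0, adjusted p = 1.62e-06) and -1.17 in LM3 (-1.33 to -1.01, adjusted p = 2.11e-06). The LM3 effect minus the HepG2 effect was 0.03 (95% interval -0.23 to 0.30, limma interaction adjusted p = 0.843), so a difference larger than about 0.30 in either direction lay outside the interval, on this scale. Quantile normalization moved that difference to 0.55 (adjusted p = 0.00195) and the LM3 fold change to -0.86, short of a log2 fold change of 1. Over all alternatives tried, the difference between the lines ranged from -0.20 to 0.55. Under siNC, FGFR4 was 6.51-fold higher in HepG2 than in LM3 (log2 difference 2.52, 95% interval 2.30 to 2.75, limma adjusted p = 7.36e-08), although line and any batch of the line cannot be told apart. The receptor thus changed in both lines, while the co-receptor had a value of 1 or more only in HepG2 siNC.

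NR1H4 encodes FXR, the nuclear receptor that senses bile acids (gene ID 9971), on chromosome 12 from 100473866 to 100564414. Its value was 12.6, 10.5 and 9.87 in HepG2 siNC and 1.34, 1.22 and 1.26 in HepG2 siFASRL. In LM3 it was 0.07, 0.25 and 0.10 under siNC and 0.15, 0.10 and 0.00 under siFASRL. The HepG2 groups were far apart, whereas in LM3 all values were close to 0 and the groups overlapped. The HepG2 mean fell from 11.0 ± 1.44 to 1.27 ± 0.0611 (SD, n = 3), with 11.6% remaining. The log2 fold change was -2.39 (95% interval -2.58 to -2.21, limma adjusted p = 2.85e-08). In LM3 the gene did not reach the value needed for a test. The LM3 effect minus the HepG2 effect was 2.32, given without a test because LM3 was near 0 with and without siFASRL and the number restates the HepG2 change.

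NR0B2 encodes SHP, a receptor without a DNA-binding domain that represses other nuclear receptors (gene ID 8431), on chromosome 1 from 26911489 to 26913975. Its value was 15.9, 17.8 and 14.1 in HepG2 siNC and 4.08, 5.09 and 5.71 in HepG2 siFASRL. In LM3 it was 0.07, 0.04 and 0.14 under siNC and 0.09, 0.00 and 0.07 under siFASRL. The HepG2 groups did not overlap, and the LM3 groups overlapped near 0. The HepG2 mean fell from 15.9 ± 1.81 to 4.96 ± 0.823 (SD, n = 3), with 31.2% remaining, a log2 fold change of -1.51 (95% interval -1.75 to -1.26, limma adjusted p = 1.32e-06). The LM3 effect minus the HepG2 effect was 1.47, which restates the HepG2 change in the same way and is given without a test.

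NR5A2 encodes LRH-1, the receptor that SHP restrains (gene ID 2494), on chromosome 1 from 200027710 to 200177415. Its value was 1.12, 0.96 and 1.09 in HepG2 siNC and 0.53, 0.54 and 0.58 in HepG2 siFASRL. In LM3 it was 0.64, 0.74 and 0.75 under siNC and 0.55, 0.45 and 0.40 under siFASRL. The siFASRL libraries lay below the siNC libraries in each line, and HepG2 siFASRL overlapped LM3 siFASRL. Too few libraries reached a value of 1 for a limma test. The mean was 1.06 ± 0.085 against 0.55 ± 0.0265 in HepG2 and 0.71 ± 0.0608 against 0.467 ± 0.0764 in LM3 (SD), with 52.1% and 65.7% remaining. A two-sided exact permutation test gave p = 0.1 in each line, the smallest p that this test can give with 3 against 3, so it could not pass 0.05. Unlike NR1H4 and NR0B2, NR5A2 had LM3 levels of the same order as those in HepG2, 1.49-fold lower under siNC.

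ABCB4 encodes the transporter that moves phosphatidylcholine into bile (gene ID 5244), on chromosome 7 from 87365896 to 87476027. Its value was 1.24, 1.30 and 1.22 in HepG2 siNC and 0.65, 0.75 and 0.67 in HepG2 siFASRL. In LM3 siNC it was 0.00, 0.03 and 0.01, and it was listed at 0 in the 3 LM3 siFASRL libraries. The HepG2 groups did not overlap, and LM3 had almost no value. The HepG2 mean was 1.25 ± 0.0416 under siNC and 0.69 ± 0.0529 under siFASRL (SD, n = 3), 55.1% of the control, with a log2 difference of -0.42. It is given without a test because only the siNC libraries reached a value of 1. Quantile normalization moved it to -0.03, so the difference in this low gene depended on the scaling. The LM3 effect minus the HepG2 effect was 0.40, and -0.02 under quantile normalization.

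A gene was tested where 3 or more libraries of the fit reached a value of 1, and called where the log2 fold change was at least 1 in size with an adjusted p under 0.05. Of the 6 listed genes, 5 passed this filter in HepG2 and 1, FGFR4, in LM3. KLB and ABCB4 passed it in HepG2 through the siNC libraries alone, the group in which they were high, so they are not counted as called. FGFR4, NR1H4 and NR0B2 were called lower in HepG2, where 6.79% of the 8144 tested genes were called lower and 3.61% higher, and FGFR4 was called lower in LM3, where 6.2% of 7483 were called lower and 1.42% higher. By adjusted p alone, 44.3% of tested genes were lower and 44.8% higher in HepG2, and 43.5% lower and 33.9% higher in LM3. These shares still hold genes that reached 1 under siNC alone and so had to differ, namely 282 of the tested genes and 79 of the lower calls in HepG2, and 233 and 81 in LM3, as well as 90 and 27 tested genes that reached 1 under siFASRL alone. The interaction passed for 46.7% of 8285 genes, and FGFR4 was not among them. Lower genes made up 65.3% of HepG2 calls and 81.4% of LM3 calls, against 52.5% and 61.5% under quantile normalization. Among listed genes with a mean of at least 5, 5 of 6367 had a log2 ratio from -0.20 to -0.04 in HepG2, and in LM3 578 of 5937 did. Genes with such a ratio in HepG2 are nearly absent from the listed genes, so all shares refer to a preselected table.

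RefSeq promoter windows, which run from 250 bases before to 50 bases after an annotated start, matched 4 of the 6 listed genes (KLB, FGFR4, NR1H4 and NR5A2). Those of KLB, NR1H4 and FGFR4 are shown because these genes were lower together in HepG2 while FGFR4 alone of them was also tested and lower in LM3. Capitals mark matches, on either strand, to 6 motifs: the LRH-1 site CAAGGTCA, the HNF4A site CAAAGTCC, the nuclear receptor core AGGTCA (contained in the LRH-1 site), the E-box CACGTG, the HNF1 core GTTAAT and the FOXA site TGTTTAC. All 3 windows are on the plus strand of GRCh38.p14, at chr4:39406680-39406979 for KLB, chr12:100503110-100503409 for NR1H4 and chr5:177089300-177089599 for FGFR4, of which the last 2 start inside the annotated gene.
KLB: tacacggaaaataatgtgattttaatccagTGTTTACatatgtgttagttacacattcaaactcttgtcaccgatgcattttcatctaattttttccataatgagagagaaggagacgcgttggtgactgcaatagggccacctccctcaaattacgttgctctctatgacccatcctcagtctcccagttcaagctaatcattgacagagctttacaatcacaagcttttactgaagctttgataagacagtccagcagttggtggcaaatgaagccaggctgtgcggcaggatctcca
NR1H4: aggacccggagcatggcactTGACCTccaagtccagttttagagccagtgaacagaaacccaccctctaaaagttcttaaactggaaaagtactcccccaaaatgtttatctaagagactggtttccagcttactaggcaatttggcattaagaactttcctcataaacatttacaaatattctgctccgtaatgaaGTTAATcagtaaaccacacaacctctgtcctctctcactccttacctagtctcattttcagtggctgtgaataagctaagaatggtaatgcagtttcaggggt
FGFR4: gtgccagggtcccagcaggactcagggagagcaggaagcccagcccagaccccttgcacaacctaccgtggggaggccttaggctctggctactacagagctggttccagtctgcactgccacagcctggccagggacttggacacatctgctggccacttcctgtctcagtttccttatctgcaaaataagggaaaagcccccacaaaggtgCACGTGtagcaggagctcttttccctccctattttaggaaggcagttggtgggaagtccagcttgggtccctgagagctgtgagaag
The KLB window held 1 match, a FOXA site at -220 from the start that is present in 3.42% of 35116 windows. The NR1H4 window held a nuclear receptor core on the reverse strand at -230 (13.8% of windows) and an HNF1 core at -53 (6.88%). This FGFR4 window held an E-box at -37 (7.26%), and the other FGFR4 window, at chr5:177086665-177086964, held none of the 6 motifs. No motif was shared by the 3 printed windows. The LRH-1 site, present in 1.28% of windows, was in none of the windows of the 4 genes, and the HNF4A site (1.2%) was in a window of NR5A2. A match is a description of letters and shows no binding.

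The other genes of each pathway were taken from 6 lists, with 135 genes of which 77 were listed. Over these lists, 74 genes were tested in HepG2, where 8 were called lower and 5 higher (over all tested genes, 6.79% and 3.61%), and 58 in LM3, where 6 were called lower and 0 higher (6.2% and 1.42%). Of these lower genes, 2 of the 8 in HepG2 and 3 of the 6 in LM3 reached 1 under siNC alone, so they had to differ and are no calls. By adjusted p alone, 40 were lower and 26 higher in HepG2 (over all tested genes, 44.3% and 44.8%), and 28 lower and 20 higher in LM3 (43.5% and 33.9%), with 3 of the 40 and 4 of the 28 in this position. The counts by adjusted p for each list are to be read against these shares. The lists are described by role, beside a median log2 fold change over all tested genes of 0.10 in HepG2 and -0.06 in LM3.

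**Figure D2:**
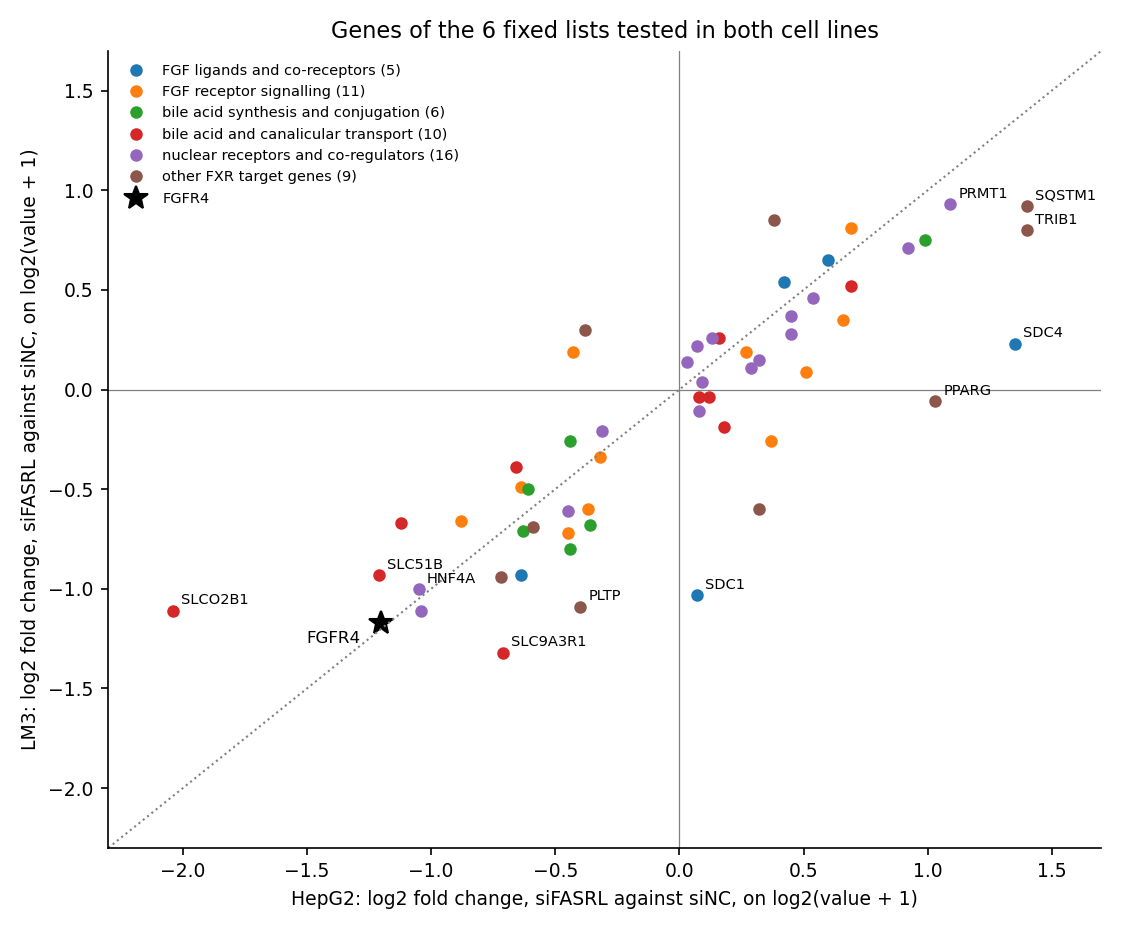
Log2 fold change (siFASRL against siNC, on log2(value + 1)) in HepG2 against that in LM3 for genes of the 6 lists tested in both lines, coloured by list, with the number of genes in the legend, FGFR4 as a star and equality as a dotted line; labels mark some of the genes described in the text. FGFR4 lies on the line of equality at -1.20 and -1.17, whereas SDC4 lies at 1.35 in HepG2 and 0.23 in LM3, PPARG at 1.03 and -0.06, and SDC1 at 0.07 and -1.03.

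Among 8 listed FGF ligands, receptors and cell surface partners (of 12), 7 were tested in HepG2 with a median of 0.32 (0.48 under quantile normalization), and 6 in LM3 with a median of -0.35 (-0.27 under median-of-ratios scaling and -0.19 under quantile normalization). SDC4, a syndecan whose heparan sulfate chains bind FGFs, rose in HepG2 from 23.7, 24.5 and 22.4 to 57.7, 61.9 and 64.6 (log2 fold change 1.35, limma adjusted p = 1.27e-07). In LM3 it rose by less, from 23.3, 22.6 and 23.0 to 26.9, 27.2 and 27.0 (0.23, limma adjusted p = 0.0019), and the effects differed by -1.12 (limma interaction adjusted p = 1.04e-07). The related SDC1 had LM3 means of 1.88 under siNC and 0.41 under siFASRL (log2 difference -1.03) and HepG2 means of 36.4 and 38.3, and the difference between the lines was -1.10 (limma interaction adjusted p = 9.48e-07). Under median-of-ratios scaling (-0.99) and quantile normalization (-0.59) SDC1 in LM3 fell short of a log2 fold change of 1. FGFBP1, a secreted carrier of FGFs, had LM3 means of 2.74 and 0.167 (log2 difference -1.68), with 6.09% remaining. It was under 1 in every HepG2 library, with means of 0.613 and 0.0267 and 4.35% remaining. In LM3, SDC1 and FGFBP1 reached 1 under siNC alone, so they had to differ to pass the filter. GPC3, a glypican of fetal liver and liver cancer, was high in HepG2 siNC at 334 and near 0 in LM3 siNC at 0.213. In HepG2 the GPC3 mean fell to 167 (log2 fold change -1.0, limma adjusted p = 8.76e-07), short of a call. Under quantile normalization this fall was called (-1.1). Of the 7 genes tested in HepG2, 2 were lower and 4 higher by adjusted p. The other FGF receptors did not share one direction: by adjusted p, FGFR1 rose in both lines (means 9.92 to 13.6 and 19.0 to 27.9), as did the ligand FGF2 (17.8 to 27.6 and 12.8 to 20.7), and FGFR3 fell in both (18.7 to 11.6 and 5.48 to 2.39). These 3 were named after their values were seen.

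For signalling downstream of the receptors, 12 of 21 genes were listed and tested in HepG2, with a median of -0.03, and 11 were tested in LM3, with a median of -0.26 (-0.17 under median-of-ratios scaling and -0.03 under quantile normalization). In HepG2, 6 were lower and 6 higher by adjusted p in limma (5 and 5 under quantile normalization), and in LM3 6 were lower and 3 higher (3 and 4 under quantile normalization). Of the 6 lower in LM3, 1 reached 1 under siNC alone and had to differ. No log2 fold change reached 1, except that of SPRY2 in LM3 under quantile normalization (1.09). PTPN11, the phosphatase SHP2 that links receptors to Ras, rose in HepG2 from 20.7 to 33.3 (log2 fold change 0.66, limma adjusted p = 2.43e-06) and in LM3 from 48.3 to 61.9 (0.35, limma adjusted p = 0.000513). PLCG1, a phospholipase bound by activated receptors, fell in LM3 from 18.1 to 10.6 (-0.72, limma adjusted p = 1.17e-05) and in HepG2 from 20.4 to 14.6 (-0.45, limma adjusted p = 7.92e-05). The feedback inhibitors SPRY4 and SPRY1 were both higher in HepG2 than in LM3 under siNC, with means of 6.21 against 0.633 and 6.60 against 1.51. By adjusted p, SPRY4 rose in HepG2 to 11.8, whereas SPRY1 fell there to 4.63. The related SPRY2, named after its values were seen, rose from 3.63 to 6.47 in HepG2 (0.69, limma adjusted p = 5.92e-06) and from 3.41 to 6.70 in LM3 (0.81, limma adjusted p = 3.07e-05).

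For bile acid synthesis and conjugation, 11 of 22 genes were listed and 9 were tested in HepG2, where 8 were lower and 1 higher by adjusted p, with a median of -0.61. In LM3, 5 of 6 tested were lower and 1 higher, with a median of -0.59. SULT2A1, the sulfotransferase of bile acids and steroids, fell in HepG2 from 16.3, 17.5 and 17.4 to 1.61, 1.93 and 2.77 (log2 fold change -2.56, limma adjusted p = 9.92e-08). CYP27A1, the sterol hydroxylase that opens the alternative route to bile acids, fell in HepG2 from 25.0, 29.9 and 23.4 to 6.38, 7.31 and 6.38 (-1.81, limma adjusted p = 1.81e-07). Both stood clear of their controls in every library. In LM3, SULT2A1 had means of 1.13 and 0.82, CYP27A1 was at or under 0.10 in every library, and neither was tested. SCP2, a peroxisomal sterol carrier, fell in LM3 from 58.8 to 36.2 (-0.68, limma adjusted p = 1.02e-05) and in HepG2 from 32.8 to 25.4 (-0.36, limma adjusted p = 0.00231). SLC27A2, an acyl-CoA synthetase, was the gene that was higher in each line, with means of 18.7 to 38.2 in HepG2 and 21.4 to 36.5 in LM3, and it was named after its values were seen.

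For transport, 13 of 29 genes were listed and tested in HepG2, where 8 were lower and 2 higher by adjusted p with a median of -0.61 (8, 4 and -0.23 under quantile normalization), and 10 were tested in LM3, where 6 were lower and 2 higher with a median of -0.29 (-0.20 and -0.21 under the 2 scalings). Of the lower genes, 2 in HepG2 and 1 in LM3 reached 1 under siNC alone and had to differ. SLCO2B1, an uptake carrier of organic anions, was 4.55, 4.59 and 4.25 in HepG2 siNC and 0.32, 0.23 and 0.44 in HepG2 siFASRL (log2 difference -2.04). In LM3 it was 2.06, 2.18 and 1.93 under siNC and 0.33, 0.50 and 0.42 under siFASRL (-1.11). It reached 1 under siNC alone in both lines, so it had to differ to pass the filter and no p is given. Its controls were high and its knockdown libraries low in both lines, with 13.5-fold between the HepG2 means, and the LM3 value moved to -0.65 under quantile normalization. SLC51B, a subunit of the basolateral bile acid exporter and a target of FXR, was higher in LM3 than in HepG2 under siNC, at 23.6 against 5.44. It fell in HepG2 to 1.77 (-1.21, limma adjusted p = 2.16e-07; -0.93 under quantile normalization), and in LM3 its mean was 11.9 after knockdown (-0.93, limma adjusted p = 1.12e-05). NR1H4 was near 0 in LM3, and the part of FXR in the SLC51B level was not tested. SLC9A3R1, a scaffold of apical transporters, fell in LM3 from 46.6 to 18.0 (-1.32) and by less in HepG2, from 95.2 to 57.7 (-0.71), a difference of -0.61 (limma interaction adjusted p = 0.000145). The sterol exporter subunit ABCG5 and the efflux pump ABCG2 were higher in HepG2 than in LM3 under siNC, with means of 3.30 against 0.04 and 2.83 against 0.657.

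Among nuclear receptors and their co-regulators, 20 of 31 were listed and tested in HepG2, where 8 were lower and 8 higher by adjusted p, with a median of 0.07 (7, 10 and 0.12 under quantile normalization), and 16 were tested in LM3, where 4 were lower and 7 higher, with a median of 0.14 (4, 10 and 0.24 under median-of-ratios scaling). HNF4A, a nuclear receptor central to hepatocyte genes, fell in HepG2 from 26.8, 27.8 and 23.8 to 12.6, 11.3 and 12.5 (log2 fold change -1.05, limma adjusted p = 1.01e-06). In LM3 it was 14.4, 14.4 and 14.2 under siNC and 6.32, 7.64 and 6.17 under siFASRL (-1.0, limma adjusted p = 5.66e-06), just short of the fold change needed for a call. The knockdown libraries lay below the controls in both lines, and the interaction estimate was 0.05 (limma adjusted p = 0.725), or 0.29 (adjusted p = 0.0336) under quantile normalization. PRMT1, an arginine methyltransferase that acts as a coactivator, rose in HepG2 from 68.3 to 147 (1.09, and 0.94 under quantile normalization), and was 75.1 and 144 in LM3 (0.93, and 1.03 under median-of-ratios scaling). RXRA, the partner of FXR on DNA, was higher in LM3 than in HepG2 under siNC, at 28.2 against 11.0, as was NR2F2, at 37.4 against 8.45. FOXA2 and PROX1, which regulate hepatocyte genes, had siNC means of 12.5 and 10.4 in HepG2 and 0.02 and 0.0333 in LM3.

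Of other genes known as FXR targets, 13 of 20 were listed and tested in HepG2, where 8 were lower and 5 higher by adjusted p with a median of -0.40, and 9 were tested in LM3, where 4 were lower and 4 higher. The LM3 median was -0.06, and it turned to 0.03 under median-of-ratios scaling and to 0.10 under quantile normalization. KNG1, which encodes kininogen, had values of 1.09, 1.17 and 1.73 in HepG2 siNC and 0.06, 0.04 and 0.10 in HepG2 siFASRL (log2 difference -1.12, and -0.90 under quantile normalization), and it too reached 1 under siNC alone, so 1 of the 8 lower genes had to differ. TRIB1, a pseudokinase, rose in HepG2 from 19.2 to 52.3 (1.40) and SQSTM1, an autophagy receptor, from 157 to 417 (1.40). In LM3 they were 10.4 and 18.9 (0.80) and 166 and 316 (0.92, and 1.02 under median-of-ratios scaling). PLTP, a phospholipid transfer protein of plasma, fell in LM3 from 4.24 to 1.46 (-1.09, and -0.72 under quantile normalization) and in HepG2 from 11.8 to 8.68 (-0.40, limma adjusted p = 0.000249). Under siNC, the apolipoprotein APOC2 and the fibrinogen chain FGG had means of 87.0 and 54.0 in HepG2 and 0.0233 and 0.04 in LM3, while PDK4, a kinase of pyruvate metabolism, was at 1.90 in HepG2 and 41.7 in LM3.

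Between the lines under siNC, 15.6% of 8176 tested genes were called higher in HepG2 and 7.74% higher in LM3, and of the 74 tested genes of the 6 lists 24 were called higher in HepG2 and 7 higher in LM3. Of these, 13 of the 24 and 1 of the 7 reached 1 in 1 line alone, as did 571 of all genes called higher in HepG2 and 68 of those called higher in LM3, so they had to differ to pass the filter. Genes higher in LM3 made up 33.1% of these calls and 48.7% under quantile normalization, which moved the median difference of all genes from 0.00 to -0.15. FGFR4 was the member with a value of at least 1 in every siNC library of both lines. KLB, NR1H4, NR0B2 and ABCB4 entered this comparison only through HepG2, so their difference is given by the levels above and not by a test.

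Hepatocyte markers were also compared between the groups. All 8 (ALB, APOA1, APOB, TF, TTR, SERPINA1, AFP and APOA2) were at 1 or more in every HepG2 library, with SERPINA1 the most abundant. Their summed value was 4661, 4628 and 4209 in HepG2 siNC and 2495, 2523 and 2561 in HepG2 siFASRL. Of the 8, 7 were lower and 1 higher by adjusted p (over all tested genes, 44.3% and 44.8%). Their median log2 fold change was -1.30, against 0.10 over all tested genes. ALB fell from 851, 805 and 790 to 233, 231 and 241, and APOA1 from 264, 309 and 233 to 73.2, 68.7 and 70.0, while APOA2 had means of 630 and 757 (log2 fold change 0.27, and -0.04 under quantile normalization). In LM3 the sum was 0.38, 4.91 and 3.27 under siNC and 1.23, 0.05 and 0.17 under siFASRL, so the defining markers of hepatocytes were at or near 0 in LM3, with 1.73 the highest single value, and none was tested there. LM3 siNC replicates 2 and 3 had values at or above those of replicate 1 for 8 of 8 markers. In bulk RNA, fewer cells with a transcript and less transcript per cell cannot be told apart. The part of these markers in the changes of KLB, FGFR4, NR1H4, NR0B2, NR5A2 and ABCB4 was not tested.

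**Figure D3:**
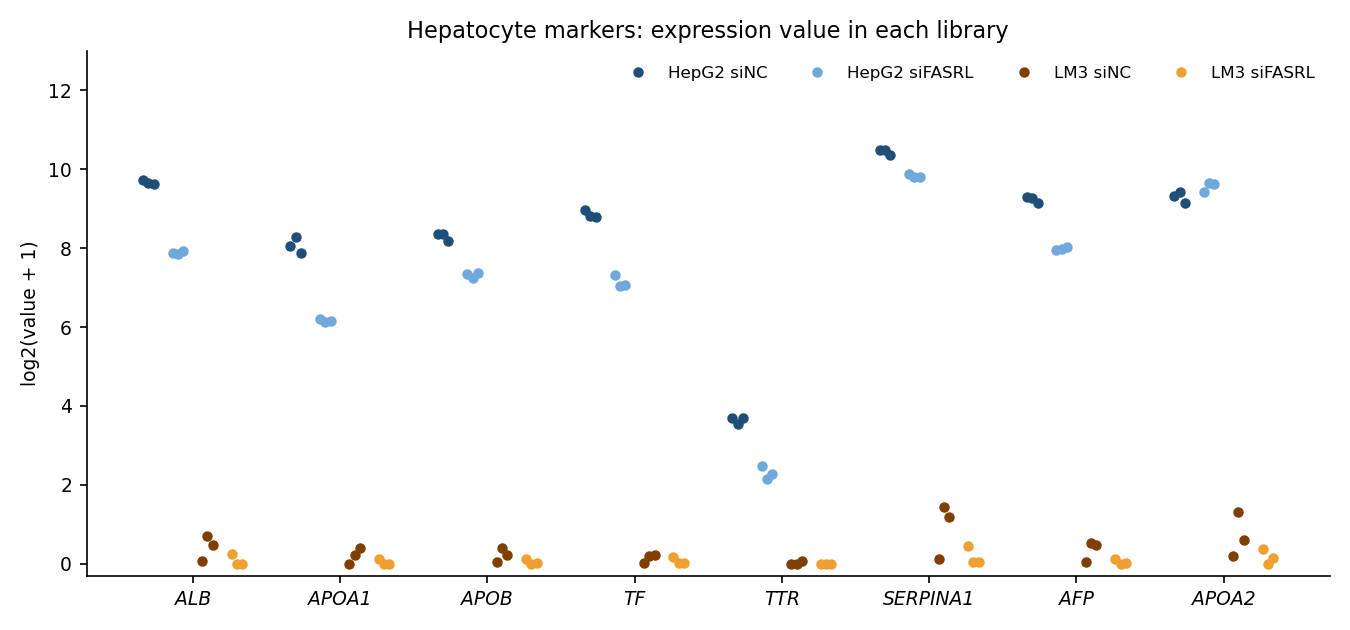
Expression of 8 hepatocyte markers in each library as log2(value + 1), with groups by colour and 1 point per library. In HepG2 the siFASRL points lie below the siNC points for 7 of 8 markers, with APOA2 the exception, and the LM3 points lie at or near 0. Over all tested genes in HepG2, 44.3% were lower and 44.8% higher by adjusted p in limma.

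Markers of other cell types were also present in HepG2. Of 5 cholangiocyte markers 4 were listed, with a summed value of 515, 554 and 508 in HepG2 siNC and 1040, 1095 and 1054 in HepG2 siFASRL, and of 188, 213 and 216 in LM3 siNC and 357, 368 and 359 in LM3 siFASRL. KRT7 was the most abundant in every library, and KRT7 and KRT19 rose in HepG2 (log2 fold change 1.17 and 1.10, with KRT7 at 0.94 under quantile normalization) while SOX9 and EPCAM fell by adjusted p (-0.39 and -1.0). In LM3 the higher sum came from KRT7 alone (means 200 and 357). The LM3 means were lower after knockdown for EPCAM (5.37 and 3.87), SOX9 (0.513 and 0.227) and KRT19 (0.36 and 0.04). For ileal enterocytes, the source of FGF19, 1 of 6 markers was listed, VIL1, with 40.1, 41.6 and 35.6 in HepG2 siNC, 20.1, 18.4 and 19.7 in HepG2 siFASRL and at most 0.32 in LM3. For fibroblasts or stellate cells 4 of 5 were listed, with sums of 56.5, 56.0 and 57.9 in HepG2 siNC, 30.9, 27.8 and 28.1 in HepG2 siFASRL, 15.1, 14.3 and 13.2 in LM3 siNC and 4.69, 5.86 and 5.25 in LM3 siFASRL, with COL3A1 the most abundant in HepG2 siNC and COL1A1 in the other groups. For leukocytes 2 of 5 were listed, CD68 and LYZ, with sums of 127, 123 and 122 in HepG2 siNC, 97.0, 87.2 and 88.8 in HepG2 siFASRL, 18.2, 15.1 and 16.2 in LM3 siNC and 18.4, 18.5 and 19.0 in LM3 siFASRL. LYZ was the most abundant in HepG2 siNC and CD68 in LM3. The lower HepG2 sum came from LYZ (means 82.7 and 46.1), whereas CD68 had means of 41.1 and 44.9 (limma adjusted p = 0.374). In LM3 the means were 14.9 and 17.5 for CD68 and 1.6 and 1.13 for LYZ. The part of these genes in the results was not tested either.

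The genes with the profile closest to that of KLB over the 12 libraries, by the root mean square difference of log2(value + 1) centred on each gene's own mean, were APOA5 (0.0883), DIO1 (0.0948), SLC5A9 (0.164), HPR (0.217) and SLC6A14 (0.227), out of 8284 compared. Their means in HepG2 siNC and siFASRL were 5.51 and 0.25 for APOA5, an apolipoprotein of triglyceride metabolism, and 6.30 and 0.293 for DIO1, the hepatic deiodinase. They were 4.39 and 0.337 for SLC5A9, 4.58 and 0.59 for HPR and 5.75 and 0.91 for SLC6A14. All 5 shared with KLB a value above 1 in HepG2 siNC and means below 1 in the other 3 groups. NR1H4 came at rank 27 of this order (0.336), FGFR4 at rank 721, ABCB4 at rank 815 and NR0B2 at rank 1397.

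**Figure D4:**
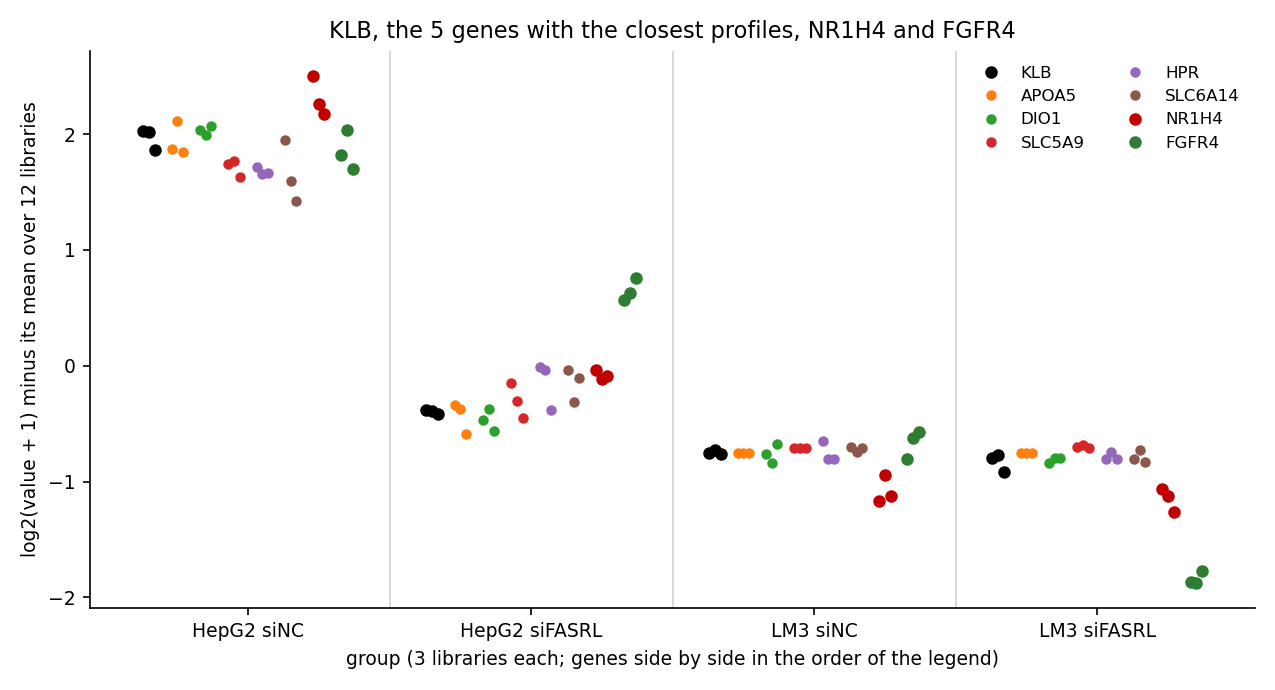
Values of log2(value + 1) minus the gene's mean over 12 libraries for KLB, the 5 genes closest to it, NR1H4 and FGFR4, side by side within each group and with 1 point per library. KLB and the 5 genes lie near each other in every group, and FGFR4 lies apart from them in HepG2 siFASRL and LM3 siFASRL.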

How the data were processed

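RNA-seq values were analysed for 12 libraries, with group and replicate taken from the sample labels. The deposited values are the authors' RSEM expression score per gene, made from reads filtered with SOAPnuke, mapped with HISAT2 and aligned to a coding gene set with Bowtie2. The submitters' processing notes name hg19, whereas the chromosome accessions in the tables are those of GRCh38, so positions and promoters come from RefSeq (GRCh38.p14). Gene identifiers matched RefSeq for 8790 of 8842 genes, and 17 symbols were restored from them. In 1 table, 6 columns of other samples were not used. Genes that reached 1 in 3 or more libraries were tested with limma (3.58.1, R 4.3.3) on log2(value + 1) within each line, between lines under siNC and as an interaction over all libraries, with Benjamini-Hochberg adjustment. For NR5A2 an exact two-sided permutation test was used (SciPy 1.17.1). Fits were tested on simulated data. Members and lists were chosen with earlier results of these data known. Besides the members, named genes were, per list and comparison, up to 2 called genes in each direction with the largest change, or the gene with the lowest p where none was called, the 5 genes closest to KLB, and markers. Not every gene taken by this rule is described. Alternatives were the pseudocount, the filter, 2 scalings, a replicate block, a variance trend and leaving out each replicate. Depth is unknown, so no counting error is given. Python 3.11.15, pandas 2.3.3 and matplotlib 3.10.9 were used.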

Additional observations from a re-analysis of the deposited data

Results flagged for a closer look

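Of 34 named genes in the interaction fit, KLB not counted, 28 had a limma interaction adjusted p under 0.05. For ABCB4, KNG1, FGFBP1 and SLCO2B1 this is no test, because they reached a value of 1 under siNC alone and had to differ to pass the filter, and their values are a description. All values are the LM3 effect minus the HepG2 effect on the log2(value + 1) scale. The genes were picked for the size of their changes, so their share cannot be read against the 46.7% of all tested genes. For 13 of them every LM3 library was under 1, so the value mostly restates the HepG2 change and is likewise a description. These were NR1H4 (2.32), NR0B2 (1.47), ABCB4 (0.40), GPC3 (0.78), SPRY4 (-0.65), CYP27A1 (1.84), ABCG5 (0.47), ABCG2 (0.64), FOXA2 (0.44), PROX1 (0.44), KNG1 (0.93), APOC2 (0.62) and FGG (0.50).

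The other 15 had a value of at least 1 in some LM3 library. The difference was positive for SULT2A1 (2.33), SLCO2B1 (0.93), SPRY1 (0.62) and SLC51B (0.28). It was negative for SDC4 (-1.12), SDC1 (-1.10), FGFBP1 (-1.04), PDK4 (-0.92), PLTP (-0.69), SLC9A3R1 (-0.61), TRIB1 (-0.60), SQSTM1 (-0.48), SCP2 (-0.32), PTPN11 (-0.31) and PLCG1 (-0.27). FGFBP1 was under 1 in every HepG2 library, where 4.35% of the siNC mean remained, against 6.09% in LM3. SPRY1 and PDK4 moved in opposite directions by adjusted p: SPRY1 by -0.43 in HepG2 and 0.19 in LM3, and PDK4 by 0.32 in HepG2 and -0.60 in LM3. The LM3 change of SPRY1 (adjusted p = 0.0288 in limma) did not pass with the replicate block (0.0592), without LM3 siFASRL replicate 3 (0.108) or without LM3 siNC replicate 3 (0.103). It passed with larger values under median-of-ratios scaling (0.25), quantile normalization (0.58) and a pseudocount of 0.1 (0.28).

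Several of these differences between the lines did not pass under another setting. With a pseudocount of 0.1 the limma interaction adjusted p was 0.889 for GPC3, 0.0516 for ABCG5, 0.356 for FOXA2, 0.134 for PROX1, 0.222 for APOC2 and 0.104 for FGG. FGFBP1, given without a test, did not pass there either (-1.01, 0.0597). Under quantile normalization it was 0.185 for PLCG1, 0.0756 for SLC51B, 0.141 for ABCG5 and 0.058 for FOXA2. Under median-of-ratios scaling it was 0.0597 for PLCG1 and 0.0567 for SCP2, and with the replicate block 0.0536 for SLC51B.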

How the results depend on the processing

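Of 184 alternative values for the members, 177 kept their side of the threshold, or for KLB moved by less than its spread between replicates. The exceptions came from quantile normalization for FGFR4 (-0.86 in LM3 and 0.55 for the difference between the lines), ABCB4 (a difference of -0.02) and KLB (-2.11, and 2.61 for the difference), and from a pseudocount of 0.1 for KLB (-3.25 and 3.0). Results that were not called could turn direction and still count among the 177. The uncalled FGFR4 difference between the lines (0.03) went as low as -0.20. ABCB4 in HepG2, also counted there, moved from -0.42 to -0.03 under quantile normalization. For the other named genes 1509 of 1564 kept their side of the threshold. This count too includes uncalled results that turned direction, such as SDC1 in HepG2 (0.07, and -0.03 under quantile normalization). GPC3 lost its interaction call and turned to a difference of -0.11 with a pseudocount of 0.1. That pseudocount raised the calls from 847 to 1373 in HepG2 and from 570 to 900 in LM3. Genes with a negative LM3 minus HepG2 effect made up 58.3% of interaction calls, and 47.3% under median-of-ratios scaling. The cause was not tested. Leaving out single replicates gave 852 to 893, 558 to 588, 3486 to 4069 and 1898 to 1939 calls in HepG2, LM3, the interaction and between the lines. KNG1 in HepG2 without siNC replicate 3 and SDC1 in LM3 without siFASRL replicate 3, both given without a test, were at -1.0. GPC3 gained a call in HepG2 without siFASRL replicate 1 (-1.03) or siNC replicate 3 (-1.05), HNF4A in LM3 without siFASRL replicate 2 (-1.08) or siNC replicate 3 (-1.0), and PRMT1 an interaction call without LM3 siNC replicate 1 (-0.25). The interaction call of SCP2 was lost without HepG2 siFASRL replicates 2 or 3, HepG2 siNC replicate 1, LM3 siFASRL replicate 1 or LM3 siNC replicate 2 (-0.30 to -0.26), and that of SLC51B without HepG2 siFASRL replicates 1 or 3, HepG2 siNC replicate 1, LM3 siFASRL replicate 2 or LM3 siNC replicates 2 or 3 (0.22 to 0.27). Between the lines, SLC9A3R1 lost its call without HepG2 siNC replicate 2 (0.97) or LM3 siNC replicate 1 (0.95). Same-numbered replicates correlated between -0.195 and 0.362, so the numbers were not taken as pairs. With the replicate block, calls were 847, 570, 3735 and 1911, and no member changed its call. With unknown depth and 2 decimals, values under 1, such as those of KLB in LM3, are coarse.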
